A study of Mus musculus with 3 samples.

Results

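The interferon-inducible GTPases are large GTP-hydrolysing proteins that cells make after interferon. The 10 genes described here are Gbp2, Gbp3 and Gbp4 of the guanylate-binding proteins, Irgm1, Igtp, Iigp1, Ifi47 and Tgtp1 of the immunity-related GTPases, and Mx1 and Mx2 of the dynamin-like Mx proteins. Their probes were found by gene symbol, current or older, in the annotation of the array. Of these 10 genes, 7 had a named probe, of 16390 named genes in all, and 6 were bright enough to compare, of 11359. Igtp and Ifi47 were not measured under these names, and Gbp3 only if the probe that the array calls Gbp4 reads it, because Gbp4 is also an older name of Gbp3.

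RNA of 3 related mouse cell lines was measured by one-colour oligonucleotide array, with 3 arrays in all. OP9 is a stromal line from the skull bone of a newborn B6C3Fe-a/a-Csf1op/Csf1op mouse, which lacks functional macrophage colony-stimulating factor, and is used as a feeder layer for blood cells. The first line was OP9 itself (the control in the labels), the second expressed GFP (OP9-GFP), and the last expressed GFP and the Notch ligand Delta-like 1 (OP9-DL). All 3 lines share the Csf1op background and the growth medium, none was treated, and no interferon was added according to the labels. How the genes were introduced, and whether a line is 1 clone, is not stated in the labels. With 1 array per line, no difference has a replicate check, and no test was run.

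Guanylate-binding proteins and immunity-related GTPases are induced by interferon gamma and, for many members, by type I interferons. They assemble on the vacuoles of intracellular bacteria and parasites and on pathogen membranes, and lipidated ATG8 proteins of the autophagy machinery help to direct them there. Irgm1 and Igtp belong to the regulatory immunity-related GTPases that guard the cell's own membranes, while Iigp1, Ifi47 and Tgtp1 are effectors. Mx proteins block viruses after entry and are induced by type I and type III interferons through a complex with STAT2 and IRF9, which binds the interferon-stimulated response element (ISRE). Interferon gamma acts on the gamma-activated sequence (GAS) and through IRF1.

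The authors scaled each array so that the median probe has an intensity of 20. Of 23473 probes, 15581 had a value on all 3 arrays and a mean log2 intensity at or above the 25th percentile, which is an intensity of 6.13, and these were compared. Dll1, which encodes Delta-like 1, had 14.0 in OP9, 20.5 in OP9-GFP and 333.3 in OP9-DL, so it was highest in the line labelled with it. Of 11 stromal markers with a probe, 10 were at or above the limit on every array, and their summed intensity was 65621, 66091 and 73022. The summed intensity of 10 macrophage and blood cell markers was 144.3, 131.7 and 123.6, and Ptprc, the pan-leukocyte antigen, was below the limit at 2.1, 2.5 and 2.8. Since whole cultures were measured, fewer expressing cells and less RNA per cell cannot be told apart.

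Most of the GTPases that could be compared had lower readings in both lines that carry GFP than in parental OP9. Of the 6 genes compared, 5 were lower by 2-fold or more in OP9-GFP than in OP9 and 0 were higher, while 6.75% of all compared probes were lower and 4.86% higher by that much. The same 5, Gbp2, Gbp4, Irgm1, Iigp1 and Mx2, were also lower by that much in OP9-DL than in OP9, beside 6.91% of probes lower and 4.31% higher. Both comparisons share the OP9 array. The median difference in log2 intensity was -3.11 for OP9-GFP and -3.69 for OP9-DL, against 0.02 over all compared probes in both. With intensities below the limit set to it, the medians were -2.75 and -2.96. Mx2, and both probes of Gbp4, lay below the brightness limit on both GFP-carrying arrays and were compared because of their OP9 intensity, so these counts and medians are descriptions. Without the limit, 7 genes had a value on all arrays and 5 were lower in each comparison.

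Gbp2, which coats pathogen vacuoles and helps to release bacterial products into the cytosol, read 97.3 in OP9, 14.0 in OP9-GFP and 7.2 in OP9-DL (intensity units, as for all levels here). It was 6.95-fold lower with GFP and 13.5-fold lower with GFP and Delta-like 1. Both GFP-carrying arrays lay well below OP9 and the OP9-DL array was the lower of them, at a reading just above the brightness limit of 6.13.

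Gbp4 was read by a pair of probes. The probe that the array calls Mpa2, an older name of Gbp4 alone, had 37.4, 4.4 and 2.7, which is 8.50-fold and 13.9-fold lower than OP9. The probe called Gbp4 had 88.6, 5.0 and 4.4, or 17.7-fold and 20.1-fold lower. Which of Gbp3 and Gbp4 that probe reads is not settled by the annotation. Both probes gave the same order of the arrays, with log2 differences of -3.09 and -4.15 for OP9-GFP against OP9. Their readings on the GFP-carrying arrays were dim: with intensities below the limit set to it, the mean difference was -3.23 against OP9 for either line.

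Among the immunity-related GTPases, Iigp1 (Irga6), an effector that oligomerises on parasite vacuoles, had 460.4 in OP9, 42.9 in OP9-GFP and 37.5 in OP9-DL. That is 10.7-fold and 12.3-fold lower than OP9, and all 3 readings were above the brightness limit. The GFP-carrying arrays were close to each other, with a log2 difference of -0.19.

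Irgm1 (Irgm on the array), a membrane-guarding regulator whose loss is known to leave mice open to mycobacteria, had 640.9, 175.9 and 317.3. It was 3.64-fold lower in OP9-GFP and 2.02-fold lower in OP9-DL. Irgm1 kept the most signal of the 5 lower genes relative to OP9 in both lines, and the OP9-DL reading lay at the edge of the threshold, with a log2 difference of -1.01 that became -0.99 under quantile scaling. It was also the only 1 of these 5 genes with a higher reading in OP9-DL than in OP9-GFP.

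Tgtp1 (Irgb6), an early coat protein of the Toxoplasma vacuole that was named as a T cell-specific GTPase, stood at 5.2, 3.4 and 4.1. All 3 readings were below the brightness limit, so the gene was not compared. The log2 differences from OP9, -0.61 and -0.34, were within 2-fold. Its near-identical neighbour Tgtp2 has no probe of its own name, and a probe of this symbol could read either gene.

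The Mx genes differed from each other. Mx2, which acts against cytoplasmic viruses where it is functional, had 39.8 in OP9, 2.7 in OP9-GFP and 2.2 in OP9-DL, 14.7-fold and 18.1-fold lower. The GFP-carrying readings were near the floor of the arrays, and with intensities below the limit set to it the difference was -2.70 in log2 for either line. Mx1, the nuclear protein known for resistance to influenza virus, had 6.6, 8.2 and 7.9, within 2-fold of OP9 and slightly above it. In the C57BL/6J reference both Mx genes are annotated as transcribed pseudogenes.

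**Figure D1:**
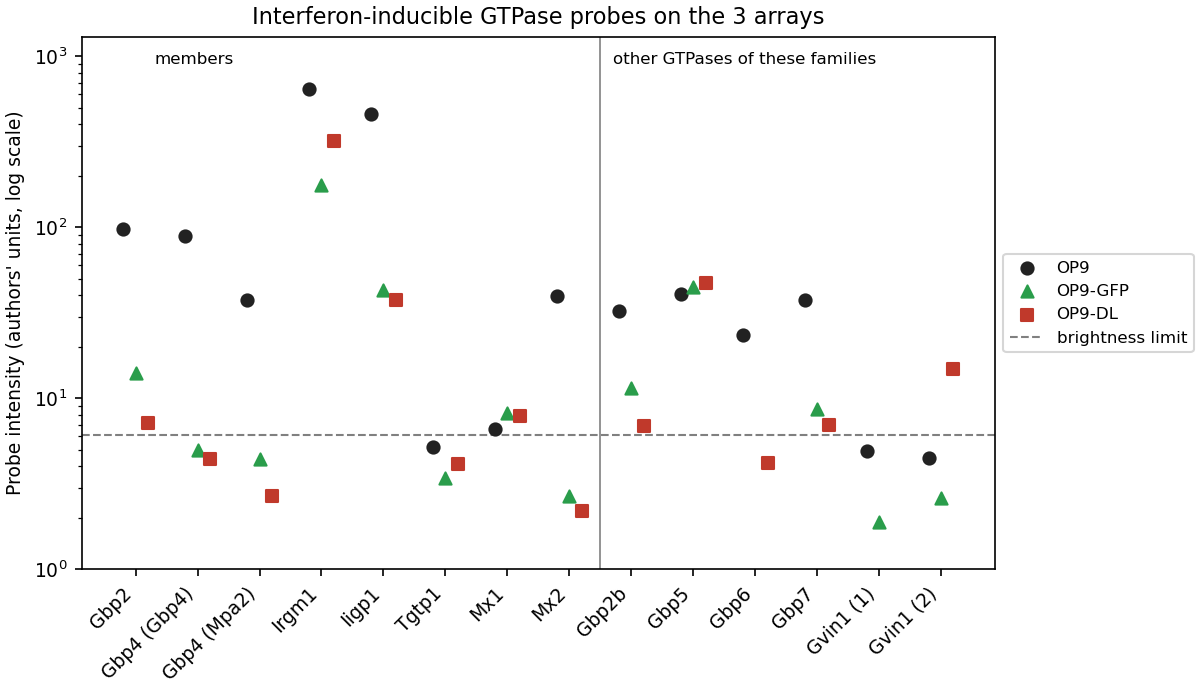
Intensity of every named probe (log axis) on the OP9 (circle), OP9-GFP (triangle) and OP9-DL (square) arrays, 1 reading each, with the brightness limit of 6.13 as a dashed line; members stand left of the vertical line and other GTPases of the same families right of it, and a missing mark is a blank. The OP9 reading is the highest for Gbp2, Gbp4, Irgm1, Iigp1 and Mx2, Mx1 and Gbp5 stay within 2-fold, and all marks of Tgtp1 lie below the dashed line.

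Between the GFP-carrying lines, OP9-DL and OP9-GFP, the GTPases were closer than in either comparison with OP9, and so were the probes as a whole. Of all compared probes, 5.03% reached 2-fold in either direction between OP9-DL and OP9-GFP. Against OP9, 11.6% did so in OP9-GFP and 11.2% in OP9-DL. None of the 6 compared genes reached 2-fold between OP9-DL and OP9-GFP, which is near the 5.03% of all probes. The median log2 difference was -0.24, against -0.01 over all probes. Gbp2 was 1.94-fold lower in OP9-DL, just inside the threshold, and Irgm1 1.80-fold higher. Gbp4 (-0.44 as the mean of its probes), Mx2 (-0.30), Iigp1 (-0.19) and Mx1 (-0.05) lay between them in log2 difference. The readings of Gbp4 and Mx2 on both of these arrays were below the brightness limit, so their order there is not firm.

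**Figure D2:**
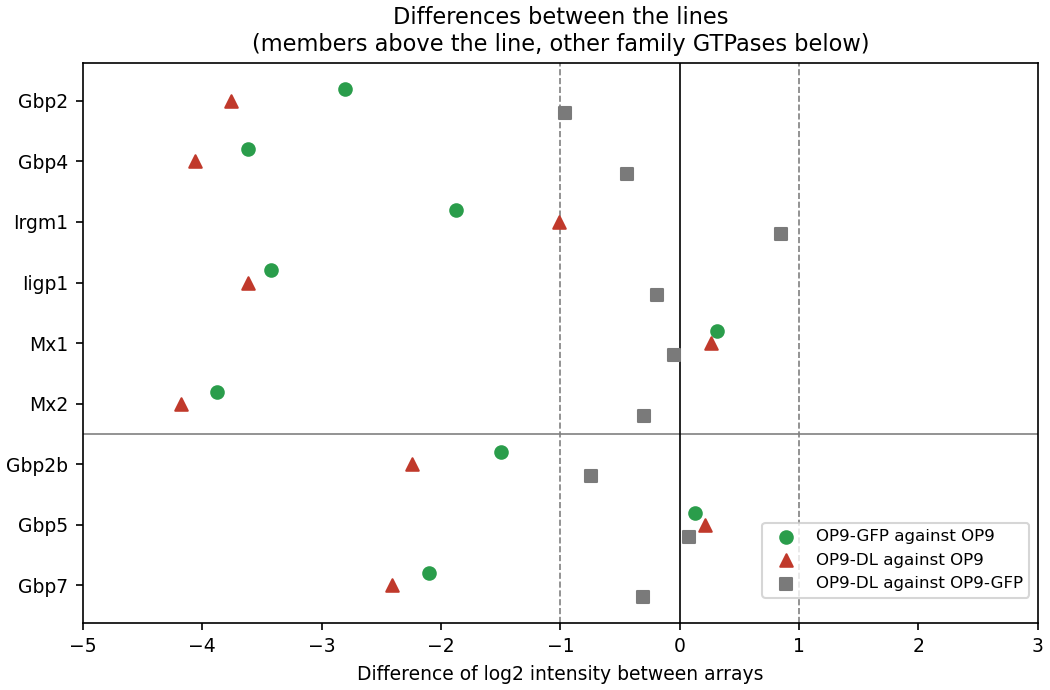
Difference of log2 intensity for each compared gene, 1 value per pair of arrays: OP9-GFP against OP9 (circle), OP9-DL against OP9 (triangle) and OP9-DL against OP9-GFP (square), with 2-fold as dashed lines. Members from Gbp2 to Mx2 range from -4.18 to 0.31 against OP9, and all squares lie within 2-fold.

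Other GTPases of these families were looked up from a list of 20, of which 5 had a named probe and 3 were compared. Gbp7, a membrane-associated guanylate-binding protein, had 37.3 in OP9, 8.7 in OP9-GFP and 7.0 in OP9-DL, 4.29-fold and 5.33-fold lower than OP9. Gbp2b (Gbp1 on the array), a vacuole-coating relative of Gbp2, had 32.5, 11.5 and 6.9, or 2.83-fold and 4.71-fold lower. In both, as in Gbp2, the OP9 reading was the highest. The OP9-DL readings were the lowest but lay just above the brightness limit of 6.13, so the order of the GFP-carrying lines is not firm.

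Gbp5, which takes part in inflammasome assembly, was not highest in OP9. It read 40.6, 44.5 and 46.9, within 1.16-fold of OP9 on every array. Gbp6 had 23.5 in OP9, a blank in OP9-GFP and 4.2 in OP9-DL. Both probes of Gvin1, the very large inducible GTPase, were dim and disagreed: 1 read 4.9, 1.9 and blank, the other 4.5, 2.6 and 14.9.

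Genes of the dynamin and atlastin GTPases and of the EHD proteins, dynamin-related ATPases, served for comparison. They shape cellular membranes and are made without interferon. Of 10 compared, 0 reached 2-fold in OP9-GFP against OP9, beside 11.6% of all compared probes. Their median log2 difference was 0.01. Ehd3 (102.3, 74.0 and 33.7) and Ehd4 (111.4, 83.4 and 67.0), which work in endosomal recycling, had the lowest differences, and Ehd1 (223.6, 325.3 and 232.4) and Atl3 (87.5, 126.2 and 85.8) the highest. In OP9-DL against OP9 the median was also 0.01, and Ehd3 was the 1 gene past 2-fold, with a log2 difference of -1.60. With 10 genes, 1 is near the 11.2% of all compared probes past 2-fold there.

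Promoters were searched for the elements through which interferon is known to act. RefSeq promoter windows (build GRCm38.p6, 250 bases before to 50 after each annotated start) were at hand for 6 of the 10 members, Gbp2, Gbp3, Irgm1, Igtp, Ifi47 and Tgtp1. They were searched on both strands for the ISRE core GAAANNGAAA (TTTCNNTTTC on the other strand) and the GAS core TTCNNNGAA, which reads the same on both. Of 32851 promoter windows of all genes, 3.44% held the ISRE core, 8.30% the GAS core and 0.454% both. Among the 6 members 5 held the ISRE core and 2, Igtp and Tgtp1, held both. In Irgm1, and at 1 of the 2 annotated starts of Gbp3, a pair of ISRE matches overlap. Ifi47 held neither in these letters. A match is a description of the letters and not of binding.

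The stretches below run 15 bases beyond the outermost matches, where the window reaches, 5′ to 3′ on the strand of the gene, with the matched bases in capitals. Gbp2 (chr3:142620589-142620628, plus strand) and Irgm1 (chr11:48871420-48871465, minus strand) are shown because both were lower in the GFP-carrying lines, to different extents, and Gbp3 (chr3:142559984-142560029, plus strand) because it has the overlapping pair on the other strand.
Gbp2: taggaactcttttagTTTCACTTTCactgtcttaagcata
Gbp3: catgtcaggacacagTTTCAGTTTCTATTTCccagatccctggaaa
Irgm1: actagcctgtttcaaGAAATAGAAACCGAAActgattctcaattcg

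Tgtp1 (chr11:48992299-48992349, minus strand), Igtp (chr11:58199496-58199546, plus strand) and the neighbour of Igtp, Irgm2 (chr11:58214887-58214937, plus strand), are shown because they share 1 arrangement, a GAS core followed after 2 bases by an ISRE core. Igtp and Irgm2 have the same base at 49 of 51 positions, and Igtp and Tgtp1 at 34.
Tgtp1: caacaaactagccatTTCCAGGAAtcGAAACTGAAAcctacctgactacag
Igtp: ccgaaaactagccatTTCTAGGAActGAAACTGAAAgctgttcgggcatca
Irgm2: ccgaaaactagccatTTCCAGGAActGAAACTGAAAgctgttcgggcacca

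Of these 3 genes only Tgtp1 had a named probe, and it was dim on every array. Gbp7 (chr3:142530215-142530307, plus strand) and Gbp2b (chr3:142594695-142594734, plus strand), which were lower in the GFP-carrying lines, are set beside Gbp5 (chr3:142496684-142496905, plus strand), which was not.
Gbp7: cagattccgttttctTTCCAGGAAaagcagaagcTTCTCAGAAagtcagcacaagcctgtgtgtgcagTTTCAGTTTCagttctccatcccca
Gbp2b: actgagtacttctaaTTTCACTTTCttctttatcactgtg
Gbp5: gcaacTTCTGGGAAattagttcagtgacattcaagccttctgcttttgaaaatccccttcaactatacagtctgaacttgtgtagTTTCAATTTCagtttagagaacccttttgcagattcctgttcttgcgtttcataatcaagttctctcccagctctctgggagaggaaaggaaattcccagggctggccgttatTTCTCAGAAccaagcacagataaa

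The ISRE core begins 59 bases before the start in Gbp2 and 53 in Gbp7, but 137 in Gbp2b and 165 in Gbp5. Gbp5, which stayed level, holds both cores, as Gbp7, which was lower, does.

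**Figure D3:**
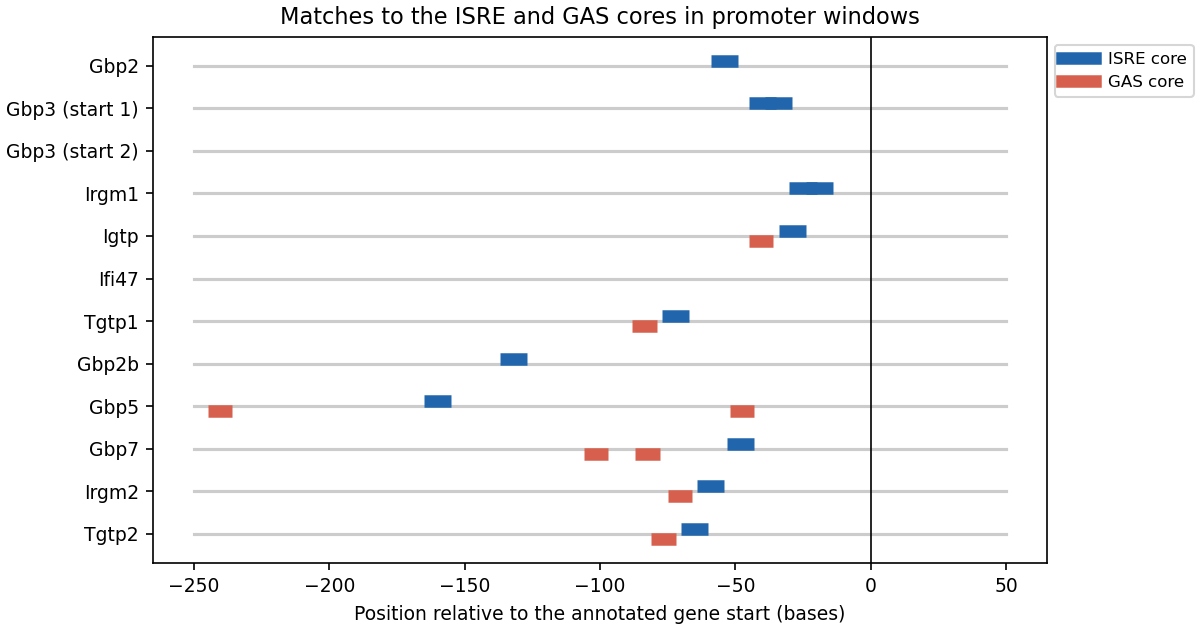
Position of ISRE core (blue) and GAS core (red) matches relative to the annotated start (bases, 0 marks the start) in promoter windows of members and of other named GTPases of the families, 1 line per window; family genes with clone-type names are left out. Irgm1 and Gbp3 carry overlapping ISRE matches within 45 bases of the start, and Igtp, Tgtp1, Irgm2 and Tgtp2 carry the GAS-ISRE pair.

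The pathway that induces the GTPases was followed from the interferons to the targets. Of 21 interferon genes listed, 7 had a named probe and 5 were compared, none of them past 2-fold in OP9-GFP or OP9-DL against OP9. Among all compared probes, 11.6% and 11.2% were past it. Ifnb1, interferon beta, had 6.4 in OP9, 6.4 in OP9-GFP and 6.3 in OP9-DL, near the brightness limit, and Ifng, interferon gamma, at 4.7, 5.2 and 5.9, below it. Ifnl3 (17.3, 15.2 and 16.3) was the lowest in OP9-GFP against OP9, and Ifne (8.6, 12.1 and 11.0) and Ifna13 (15.9 in OP9, 18.4 in OP9-DL, and 1.32-fold above OP9 in OP9-GFP) the highest. The interferon alpha genes are near-identical, and a probe for 1 of them can read others.

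The receptors differed little. Ifnar1 and Ifnar2, which form the type I receptor, had 53.5, 45.6 and 38.9, and 46.8, 42.6 and 31.9. Ifngr1 and Ifngr2, which form the interferon gamma receptor, had 152.0, 159.3 and 150.7, and 65.5, 100.7 and 59.6. Il10rb, a chain of the type III receptor, had 165.9, 115.0 and 79.7 and was the 1 of 5 compared receptor genes past 2-fold, in OP9-DL against OP9 (-1.06 in log2). Among all compared probes, 11.2% were past 2-fold there. Ifnlr1, the other type III chain, was dim at 2.4, 1.3 and 2.6.

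Several transcription factors of the pathway were lower in the GFP-carrying lines, while the kinases stayed within 2-fold. Of 11 compared JAK, STAT and IRF genes 4 were at least 2-fold lower in OP9-GFP against OP9 and 0 higher. Among all compared probes, 6.75% were lower and 4.86% higher by that much. The 4 genes were Irf7, the amplifier of interferon production (424.4, 14.2 and 31.6), Stat2 (355.0, 31.6 and 72.5) and Irf9 (240.4, 44.2 and 80.5) of the ISRE-binding complex, and Irf1 (231.0, 54.2 and 34.7), which drives Gbp and Irg genes. In OP9-DL against OP9, 6 were lower, these 4 and Stat3 (324.2, 179.5 and 88.4) and Irf5 (566.0, 378.4 and 274.5), beside 6.91% of all compared probes.

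Jak1 (410.4, 305.4 and 356.4), Jak2 (57.8, 57.3 and 47.3) and Tyk2 (155.6, 97.1 and 95.3), the receptor kinases, stayed within 2-fold, as did Irf3 (243.3, 244.9 and 297.3) and Irf2 (20.5, 11.3 and 13.5). Irf8 was dim at 2.7, 1.5 and 2.0.

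Between OP9-DL and OP9-GFP, Stat2 was 2.29-fold and Irf7 2.23-fold higher in OP9-DL, Irf9 1.82-fold higher and Irf1 1.56-fold lower, while Stat3 was lower by 1.02 in log2.

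Among 11 compared inhibitors of interferon signalling, Usp18, an inhibitor of the type I receptor that interferon itself induces, was the 1 gene past 2-fold against OP9 (968.5, 45.2 and 71.2). It was 21.4-fold lower in OP9-GFP and 13.6-fold lower in OP9-DL. In OP9-GFP against OP9, Pias3 (40.2, 30.8 and 29.0) was the next lowest, and the phosphatases Ptpn2 (124.7, 221.8 and 141.7) and Ptpn11 (9.4, 16.3 and 11.4) were the highest. The median there was 0.03. With 11 genes, 1 past 2-fold is near the shares of all compared probes, 11.6% in OP9-GFP and 11.2% in OP9-DL against OP9. The phosphatase Ptpn1 (482.2, 490.9 and 244.2) was lower in OP9-DL than in OP9-GFP.

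Of 11 compared nucleic acid sensors and adaptors, 4 were at least 2-fold lower in both GFP-carrying lines than in OP9 and 0 higher. The shares of all compared probes lower by that much were 6.75% in OP9-GFP and 6.91% in OP9-DL. The RNA sensor Ifih1 (MDA5) had 267.5, 22.5 and 15.2 and its regulator Dhx58 (LGP2) 251.3, 18.7 and 18.8. Ddx58 (RIG-I) had 309.1, 66.7 and 84.0, and the kinase Ikbke 53.7, 16.8 and 20.6. Tbk1 (173.1, 172.7 and 212.1) and Zbp1 (149.7, 133.3 and 111.6) had the highest differences in OP9-GFP against OP9.

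The other interferon-stimulated genes were mostly lower too. Of 25 compared, 21 were at least 2-fold lower in OP9-GFP and 21 in OP9-DL than in OP9, with medians of -3.14 and -2.41 in log2. The shares of all compared probes lower by that much were 6.75% and 6.91%. Ifit3, an antiviral protein, had 269.5, 5.4 and 10.6, of which the OP9-GFP reading was below the brightness limit, so its fold there is not firm. Oas2, a synthetase of the RNase L activator (295.7, 7.9 and 12.6), was 37.4-fold and 23.5-fold lower. Rsad2 (61.8, 43.9 and 53.4) and Uba7 (14.2, 14.5 and 16.6) had the highest differences in OP9-GFP. Between OP9-DL and OP9-GFP, 5 of these genes were higher by 2-fold or more (Ifi27, Adar, Samd9l, Oas1a and Trim25) and 3 lower (Ifi44, Sp100 and Parp12). Over all compared probes, 2.31% were higher and 2.72% lower by that much. The OP9-DL readings of Ifi44 (2.5) and Sp100 (3.1) were below the brightness limit, so both of these calls are not firm.

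Of 9 compared genes listed as mainly induced by interferon gamma, 5 were at least 2-fold lower in both lines and 0 higher. The shares of all compared probes lower by that much were 6.75% in OP9-GFP and 6.91% in OP9-DL. The 5 genes were the immunoproteasome subunits Psmb8 (1449.2, 112.2 and 13.3), Psmb9 (384.9, 35.9 and 27.4) and Psmb10 (801.2, 79.0 and 49.7) and the peptide transporters Tap1 (48.1, 17.0 and 20.4) and Tap2 (337.4, 47.0 and 52.3). Ciita (24.8, 33.6 and 25.2), the class II master regulator, and Cd274 (7.7, 8.4 and 8.5) had the highest differences in OP9-GFP. Both, with H2-Aa (16.1, 17.1 and 19.2) and Icam1 (79.0, 68.7 and 68.5), stayed within 2-fold of OP9. Cxcl9, Nos2, Ido1 and Cd74 were below the brightness limit on all arrays. Cxcl10 was too dim on average to compare, with 10.2 in OP9, above the limit, and 3.7 and 4.6 in the GFP-carrying lines, below it.

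The ATG8 conjugation genes, whose products help to place these GTPases on vacuoles, were mostly within 2-fold. Of 12 compared, 1 was at least 2-fold lower in OP9-GFP, Map1lc3b (LC3B; 350.3, 147.0 and 184.8). In OP9-DL, Map1lc3a (903.3, 749.3 and 301.7) and Atg10 (71.9, 40.6 and 33.4) were at least 2-fold lower than in OP9. The shares of all compared probes lower by that much were 6.75% in OP9-GFP and 6.91% in OP9-DL. With 12 genes, counts of 1 and 2 are not far from these shares. Atg5 (84.5, 108.7 and 77.0) and Gabarapl2 (7.3, 11.3 and 9.4) had the highest differences in OP9-GFP. The medians were -0.32 and -0.43.

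**Figure D4:**
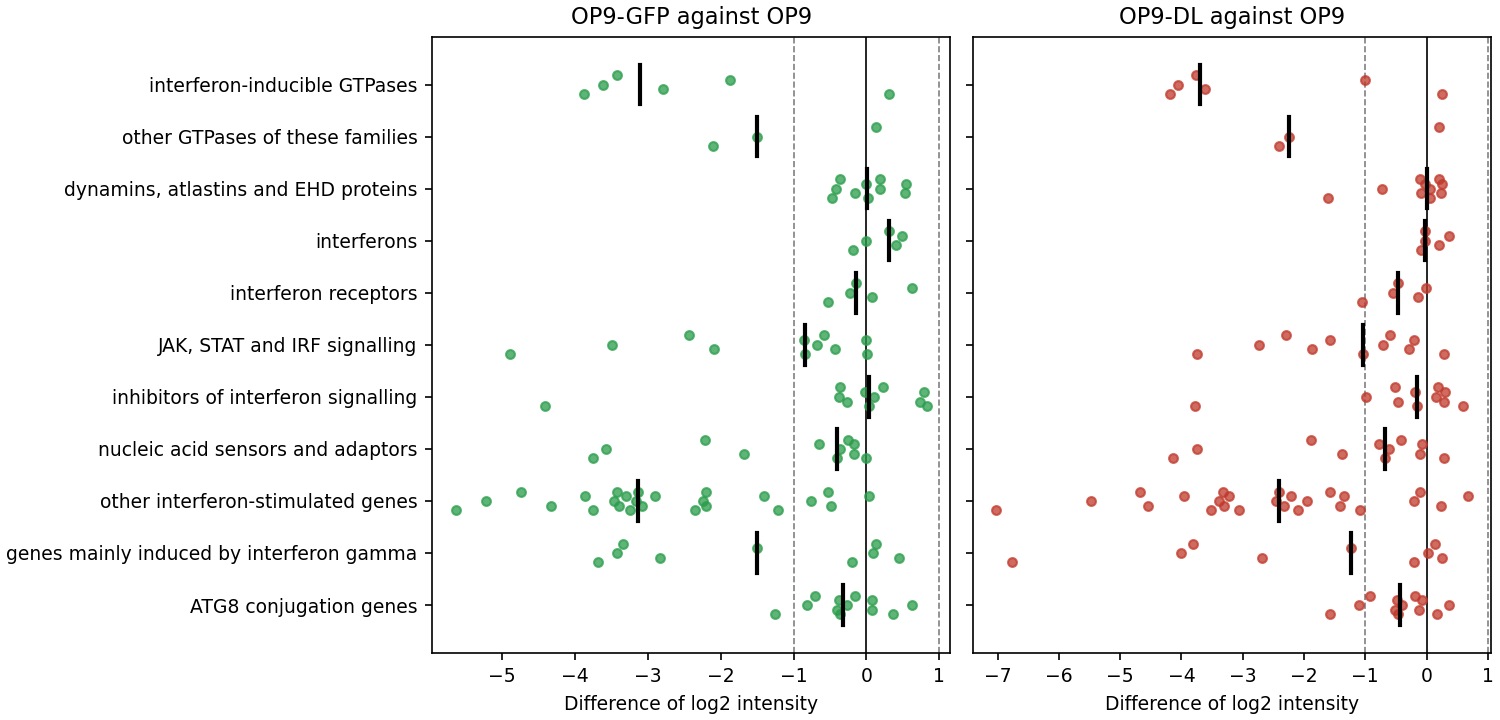
Difference of log2 intensity from the OP9 array for each compared gene (point) of the GTPases and of the pathway lists, with the list median as a black bar and 2-fold as dashed lines; OP9-GFP is left and OP9-DL right, on axes of different range. The medians of the members are -3.11 and -3.69, and those of the dynamins, atlastins and EHD proteins 0.01 and 0.01.

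The members lie in clusters on chromosomes 3, 5, 11, 16 and 18, so the genes next to them were examined in the order of the gene table of GRCm38.p6. The 3 nearest compared genes on each side of each member, where the chromosome had them, gave 34 different genes outside the families. Of these, 3 were at least 2-fold lower and 2 higher in OP9-GFP against OP9, with a median log2 difference of 0.03. Over all compared probes, 6.75% were lower and 4.86% higher by that much. In OP9-DL against OP9, 4 of the 34 were lower and 1 was higher, and their median was -0.13, beside 6.91% of all compared probes lower and 4.31% higher. The neighbours of the Mx genes, among them Fam3b (16.1, 11.9 and 15.8), which lies between both, stayed within 2-fold.

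The neighbours past 2-fold are named here. Olfr56, an olfactory receptor gene of the Ifi47 cluster on chromosome 11, had 198.6, 52.4 and 13.4. Spp1, the matrix protein osteopontin (26149, 5611 and 6878), and Sparcl1 (74.9, 29.3 and 32.3) flank the Gbp4 cluster on chromosome 5, where Lrrc8c on the other side was higher in both GFP-carrying lines (22.9, 70.1 and 58.7). Chsy3, the nearest compared gene before Iigp1, was higher in OP9-GFP (4.3, 15.7 and 8.5), but its OP9 reading was below the brightness limit, so this call is not firm. Kyat3, which follows the Gbp cluster on chromosome 3, was past 2-fold in OP9-DL alone (58.6, 35.8 and 20.9). Between OP9-DL and OP9-GFP, Olfr56 and Smim3 (110.9, 184.4 and 72.8), which follows Iigp1, were lower.

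**Figure D5:**
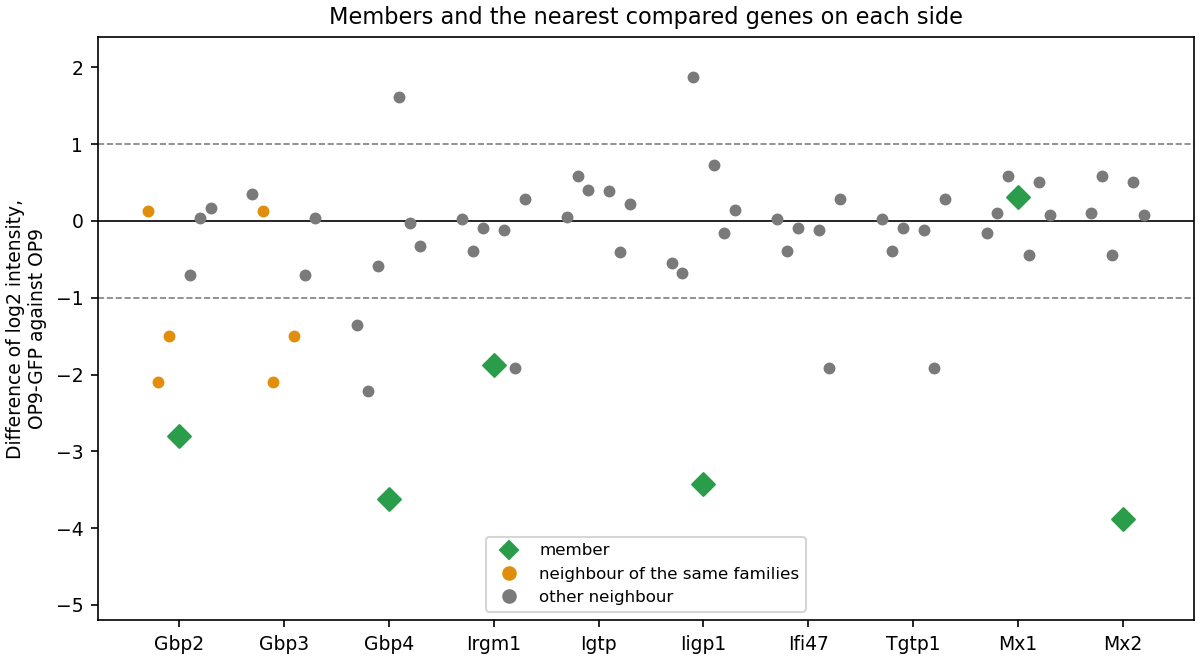
Difference of log2 intensity, OP9-GFP against OP9, for each compared member (diamond) and the nearest compared genes on either side of its locus in gene order (circles, orange for GTPases of the same families), with 2-fold as dashed lines. Most grey circles lie near 0 (median 0.03 over 34 genes), while the diamonds of Gbp2, Gbp4, Irgm1, Iigp1 and Mx2 lie between -3.88 and -1.87.

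Genes of like pattern were ranked by the distance, over the 3 arrays, between their log2 intensities and the members' median pattern, each gene centred on its own mean. Iigp1 lay closest to that pattern among the members at 0.17, followed by Gbp4 (0.33), Gbp2 (0.42) and Mx2 (0.48), with Irgm1 at 1.86 and Mx1 at 3.06. Of the 10 nearest other genes 4 were on the interferon lists, namely Psmb9 (0.15), Parp14 (0.25), Dtx3l (0.26) and Psmb10 (0.27). The lists were chosen with earlier results of these data known, so this count is a description. The rest of the 10 were Cdkn1c, a cell cycle inhibitor (0.12), Ly6f, a surface protein of the Ly6 family (0.13), Stac2 (0.23), 9030619P08Rik (0.23), Tmem86a (0.24) and Xdh, xanthine dehydrogenase (0.32). The readings of Cdkn1c in both GFP-carrying lines (4.7 and 3.2) and of Stac2 in OP9-DL (4.9) were below the brightness limit, as were those of Gbp4 and Mx2, so these distances and their order are not firm. With 3 arrays this likeness says only that OP9 was high and both GFP-carrying lines low to a similar extent.

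Markers of other cells that respond to or make interferon were read beside these values. The summed intensity of 8 T and NK cell markers was 67.3 in OP9, 62.3 in OP9-GFP and 57.1 in OP9-DL, with 3, 4 and 3 of them at or above the brightness limit. That of 7 endothelial markers was 43.3, 32.6 and 37.1, with 1, 2 and 1 at or above it. Of the macrophage and blood cell markers, 5 of 10 reached it in each line. Among them, the monocyte receptor Cd14 was 1.64-fold lower in OP9-GFP and 2.42-fold lower in OP9-DL than in OP9. Most of the T and NK cell and endothelial readings were dim, and the part of any such cells in the GTPase values was not tested.

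The sum of 7 markers of plasmacytoid dendritic cells, the main makers of type I interferon in blood, was 3595.3, 394.2 and 429.1, with 4, 4 and 5 at or above the limit. Almost all of it came from Bst2 (3537.2, 335.4 and 359.6), which interferon also induces in many other cells. Siglech, a defining marker, had 27.2, 25.6 and 26.6, and Ly6d had 3.9, 4.7 and 13.4, which is 3.44-fold higher in OP9-DL than in OP9. The OP9 reading of Ly6d was below the limit, so this fold is not firm. The sum of 9 mast cell markers was 146.4, 97.9 and 909.1, with 4 of them at or above the limit in each line. Tpsab1, a tryptase, made up most of it in OP9-DL at 818.9, and Kit, a defining marker, read 1.6 in OP9 and was blank in both other lines.

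Some stromal genes also differed. Of 10 compared stromal markers, Pdgfra, a fibroblast receptor (800.6, 166.1 and 127.1), was lower by 2-fold or more in OP9-GFP than in OP9 and Col1a1, a collagen chain (269.3, 712.9 and 557.0), higher. With 10 genes, 1 lower and 1 higher is near the shares of all compared probes, 6.75% lower and 4.86% higher. Fn1 (17144, 10241 and 11282) and Col5a1 (2410.3, 3655.5 and 2779.6) were the next lowest and highest. In OP9-DL, Col3a1 (660.5, 936.4 and 195.9) was lower as well. The part of such differences between the lines in the GTPase values was not tested.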

How the data were processed

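Total RNA of 3 cultures was amplified, coupled to Cy5 and hybridised to 1 array each, per the labels' protocols. The deposited values are linear probe intensity, which the authors scaled to a median of 20 on each array, as the values show. The background correction and what makes a cell blank are not stated in the labels.

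Log2 was taken with no added constant and no further normalization. Probes with 1 symbol (16631) were named from the platform's table and updated through a gene table of GRCm38.p6, 3947 of them through a synonym, and 6842 had no single symbol. A gene's compared probes were averaged in log2. A gene counted as higher or lower at 2-fold. With 1 array per line there was no test, and the number of arrays, 3, limits the precision. The counting procedure was tested on simulated data.

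Members and lists were chosen with earlier results of these data known. Named were all members, family GTPases, receptors and signalling genes, the 2 highest and 2 lowest compared genes of each other pathway list in OP9-GFP against OP9 and those that account for small counts, the 10 genes of nearest pattern, and neighbours past 2-fold. Alternatives covered scaling, the brightness limit, a constant, blanks, thresholds, probe choice and, after the data were seen, the naming of 1 probe and a floor. Python 3.11.15, numpy 2.4.6, pandas 2.3.3, statsmodels 0.14.6 and matplotlib 3.10.9 were used.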

Additional observations from a re-analysis of the deposited data

How the results depend on the processing

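No paired analysis was possible because each line has 1 array and the labels give no replicate numbers, and for the same reason no array could be left out. With a brightness limit at the 50th percentile only Iigp1 and Irgm1 were left: 2 genes were lower in OP9-GFP against OP9 and 2 in OP9-DL against OP9, where the median became -2.32, since fewer genes were compared. At a threshold of 1.5-fold, 2 members were called in OP9-DL against OP9-GFP, Gbp2 lower and Irgm1 higher. Under quantile scaling Irgm1 in OP9-DL against OP9 was -0.99, and 4 members were lower there in place of 5. The other alternatives, namely lowess scaling (span 0.3), no limit, a constant of 5, blanks set to the lowest value, a threshold of 4-fold, the brightest probe per gene and, added after the data were seen, the probe called Gbp4 counted as Gbp3 and values below the limit set to it, kept the count within 1.5 times of the main count in each comparison. The median of OP9-DL against OP9 was -2.76 with a constant of 5 and -2.96 with values below the limit set to it, in place of -3.69. The median of OP9-GFP against OP9 ran from -3.11 to -2.48 over all alternatives, and that of OP9-DL against OP9-GFP from -0.27 to 0.33, so its sign is not settled. Dim readings limit the folds of Gbp4 and Mx2: with a constant of 5, Mx2 went from -3.88 to -2.54 and Gbp4 from -3.62 to -2.70 in OP9-GFP against OP9.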
